A study of Mus musculus with 25 samples.

Results

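The antioxidant enzymes described here are 10 genes, Sod1, Sod2, Cat, Gpx1, Gpx4, Prdx1, Prdx3, Prdx6, Hmox1 and Nqo1, chosen by name and found by their Ensembl identifiers among the 47729 genes of the count table. All 10 passed the filter on low counts, which left 17799 genes to be tested. Total RNA was sequenced from brain hemispheres of male C57BL/6 mice, an inbred laboratory strain, at 2, 9, 15, 24 and 30 months of age, with 5 libraries at each age and 25 in all. No treatment or genetic change is given for any group, and the ages differ in nothing else that the labels record. The labels number each library separately but do not state that each is a separate animal, so the p-values measure the spread between these libraries.

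Cells produce superoxide and peroxides as by-products of respiration and of oxidase enzymes, and the antioxidant enzymes remove them in steps. Superoxide dismutases turn superoxide into hydrogen peroxide, which catalase, glutathione peroxidases and peroxiredoxins reduce further. Hmox1 and Nqo1 belong to a stress-inducible arm that the transcription factor Nrf2 (gene Nfe2l2) switches on through antioxidant response elements in DNA, and astrocytes and microglia are known for a strong response of this kind.

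Depth ran from 17800113 to 31261121 counted reads a library. Levels are given as CPM, the counts scaled to a common library total after TMM normalization, so that libraries of different depth can be compared. Markers of neurons, astrocytes, oligodendrocytes and microglia had counts in every library, as a brain sample requires. At 30 months, replicates 2 to 5 stood apart from the other libraries in how they read GC-rich genes. The GC gap is the median log2 ratio, to the mean of the younger libraries, of the 10% of protein-coding genes richest in GC minus that of the 10% poorest. It was 1.09, 1.43, 1.32 and 2.01 in those 4 libraries and 0.13 in 30 months replicate 1, against -0.25 to 0.15 across the 20 younger libraries. The ages of 2 to 24 months were therefore compared in a fit of those 20 libraries alone, and 30 months is given with and without a correction for GC content.

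The promoter windows of 3 members are shown because they differ in their matches to the element that Nrf2 is known to bind. They are taken from RefSeq on GRCm38.p6, run from 250 bases before to 50 bases after the annotated start, and are written 5′ to 3′ on the strand of the gene. Capitals mark each match to the antioxidant response element core, searched as TGACNNNGC or TGAGNNNGC on both strands.
Prdx1, chr4:116685349-116685648, plus strand: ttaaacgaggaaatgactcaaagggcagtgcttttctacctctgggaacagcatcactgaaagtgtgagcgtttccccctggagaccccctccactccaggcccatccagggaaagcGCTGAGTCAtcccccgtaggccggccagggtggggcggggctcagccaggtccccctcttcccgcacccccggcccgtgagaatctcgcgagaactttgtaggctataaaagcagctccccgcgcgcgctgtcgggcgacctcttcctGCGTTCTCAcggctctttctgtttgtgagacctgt
Sod1, chr16:90220512-90220811, plus strand: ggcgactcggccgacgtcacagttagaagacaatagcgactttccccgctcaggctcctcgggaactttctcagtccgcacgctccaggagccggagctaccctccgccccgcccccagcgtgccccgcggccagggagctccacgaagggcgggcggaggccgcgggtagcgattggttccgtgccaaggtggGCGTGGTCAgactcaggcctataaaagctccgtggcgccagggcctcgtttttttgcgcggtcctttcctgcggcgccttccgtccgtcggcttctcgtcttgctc
Nqo1, chr8:107403156-107403455, minus strand: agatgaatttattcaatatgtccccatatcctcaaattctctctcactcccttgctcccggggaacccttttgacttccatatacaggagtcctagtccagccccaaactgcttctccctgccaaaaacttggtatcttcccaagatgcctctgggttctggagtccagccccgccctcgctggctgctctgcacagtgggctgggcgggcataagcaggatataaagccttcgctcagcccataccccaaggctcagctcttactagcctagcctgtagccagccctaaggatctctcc
The Prdx1 window holds 2 matches, which begin 133 bases before and 15 bases after the start. The Sod1 window holds 1 match, which begins 56 bases before the start, and the Nqo1 window holds none. Windows were found for 8 of the 10 members, with 4 alternative windows for Gpx4, and no match lay in those of Sod2, Cat, Gpx1, Gpx4 and Prdx3. Prdx6 and Hmox1 were not among the 8. Of 32851 promoters of this length, 27.8% hold a match to either form. The FOXO motif GTAAACA was in none of the members' windows and in 3.65% of all promoters, and the Sp1 motif GGGCGG was in at least 1 window of each of the 8 members and in 35.7% of all promoters. A match is a description of letters and not of a bound site. Sequence more than 250 bases before the start was not searched, so a window without a match does not show that the gene lacks the element.

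The members spanned a wide range of abundance. Per kilobase of exon, the mean level over the 20 libraries of 2 to 24 months was highest for the mitochondrial peroxiredoxin Prdx3, at 42.2 CPM per kilobase, followed by Prdx6 at 37.0, Sod1 at 28.8 and Gpx1 at 28.1. Gpx4 stood at 21.1, Prdx1 at 20, Cat at 16.4 and Sod2 at 12.9 CPM per kilobase. The inducible pair was lowest, with 3.60 for Nqo1 and 2.94 for Hmox1. The length used is that of all annotated exons of a gene together. It is 4804 bases for Prdx6, whose longest transcript has 2558, and 1478 bases by either measure for Prdx3. The order of the members per kilobase therefore depends on the length chosen. Gpx4 shares 762 bases at 99.7% identity with Gpx4-ps2, which is absent from the count table. Prdx1 shares 597 bases at 98.3% with Gm21399, and Sod1 shares 465 bases at 97.8% with Gm8566. How the counting placed reads from such stretches is not given in the sources used here, and their effect on the levels was not tested. On the scale not divided by length the means ran from 5.15 CPM for Hmox1 to 178 CPM for Prdx6. The spread between libraries of 1 age was small for the abundant members and wider for the scarce pair: the pooled coefficient of variation was 2.47% for Sod1 and 2.81% for Sod2, and 10.8% for Nqo1 and 13% for Hmox1.

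**Figure D1:**
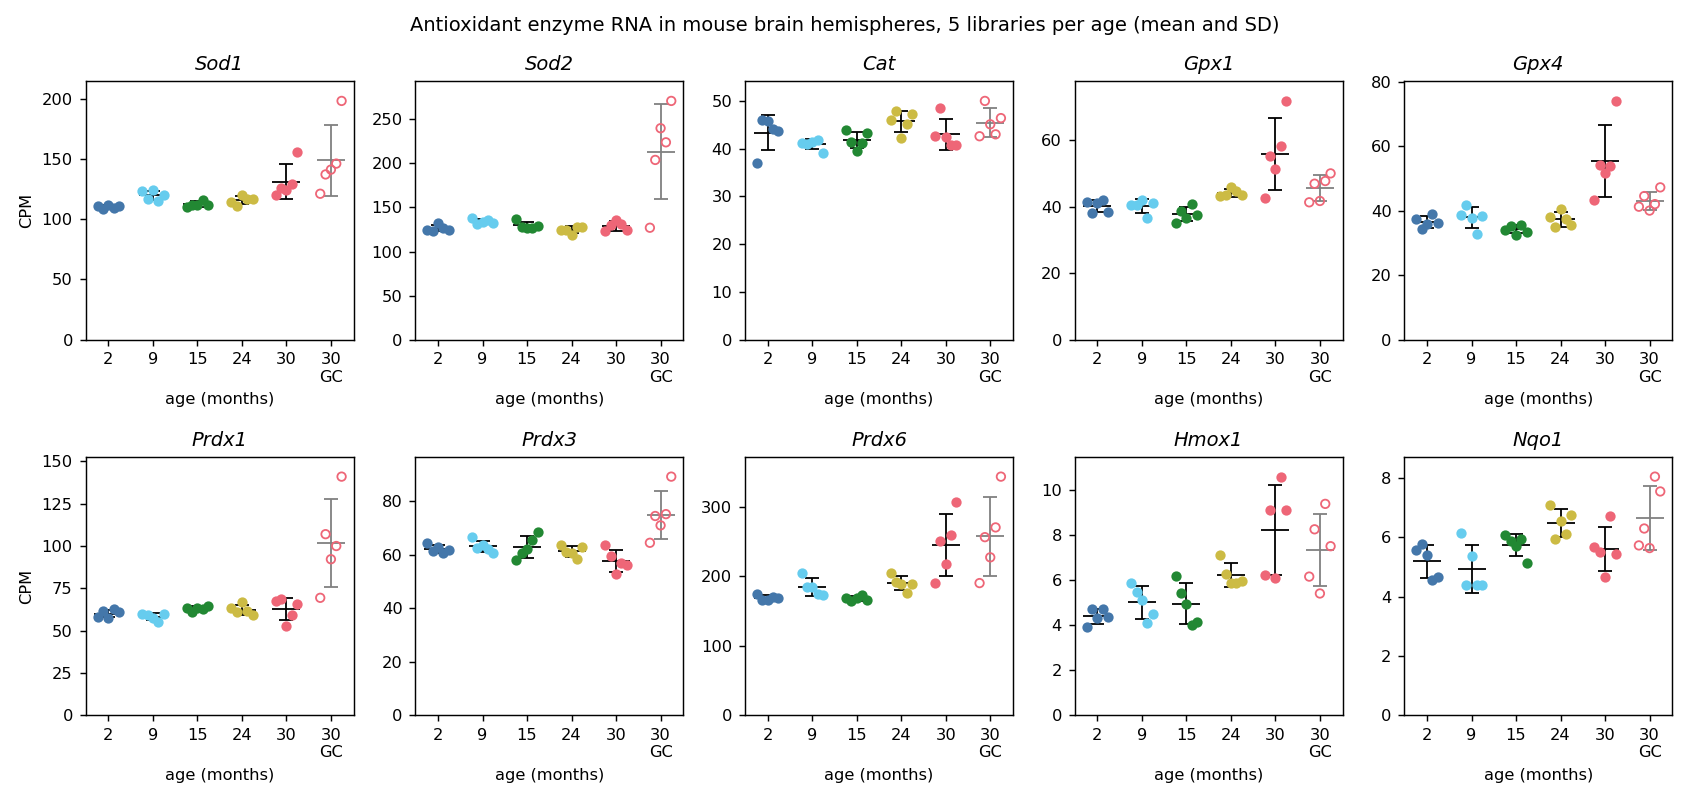
Level of each of the 10 enzymes (vertical axis, CPM after TMM scaling, from 0) by age (horizontal axis, months); filled points are single libraries, 5 per age, and the bars give the mean and SD. Open points are the 30 month libraries after the GC correction. Hmox1 had a mean of 6.23 CPM at 24 months and 4.4 CPM at 2 months, while Prdx3 stayed between 61.2 and 63.1 CPM in the means of 2 to 24 months.

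Which members had a slope with age was asked with a straight line through the 20 libraries of 2 to 24 months. The slope was tested by edgeR's quasi-likelihood F test, with p-values adjusted over all 17799 tested genes. A slope does not require a rise at each step between ages. Hmox1 and Nqo1, the inducible pair, rose, and no member fell. Over all genes 8.16% rose and 8.41% fell along the line. The median log2 change over the 22 months was 0.08 among the members and 0 among all genes.

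Hmox1 (ENSMUSG00000005413, chromosome 8, 75093621 to 75100589, plus strand, GRCm38) encodes heme oxygenase 1, which opens heme into biliverdin, iron and carbon monoxide. Its levels were 3.91, 4.7, 4.3, 4.72 and 4.35 CPM at 2 months and 5.89, 5.47, 5.12, 4.1 and 4.48 CPM at 9 months. They were 6.2, 5.45, 4.95, 4.03 and 4.15 CPM at 15 months and 7.13, 6.29, 5.88, 5.88 and 5.96 CPM at 24 months. Every 24 month library lay above every 2 month library, and of the 10 libraries of 9 and 15 months 4 lay between those ages, 4 at or below the 2 month range's top and 2 within the 24 month range. Along the line Hmox1 rose 1.39-fold in 22 months (log2 0.47 ± 0.108 SE, adjusted p = 0.00345). It rose 1.42-fold at 24 with 2 months (log2 0.51 ± 0.109 SE, adjusted p = 0.00109). Both calls held without any single library and in every other setting tried, with log2 values from 0.43 to 0.60 for the line. Hmox1 counts were 80 or more in each library.

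Nqo1 (ENSMUSG00000003849, chromosome 8, 107388225 to 107403206, minus strand) encodes a quinone reductase that keeps quinones from cycling into superoxide. Its levels were 5.57, 5.77, 5.4, 4.56 and 4.65 CPM at 2 months and 6.14, 4.4, 5.38, 4.38 and 4.39 CPM at 9 months. They were 6.09, 5.88, 5.72, 5.95 and 5.13 CPM at 15 months and 7.1, 5.94, 6.57, 6.1 and 6.76 CPM at 24 months. The 24 month libraries again lay wholly above the 2 month libraries, whereas 3 of the 5 libraries of 9 months were below every 2 month library. Along the line Nqo1 rose 1.29-fold (log2 0.37 ± 0.0970 SE, adjusted p = 0.00972), and at 24 with 2 months it rose 1.25-fold (log2 0.32 ± 0.0957 SE, adjusted p = 0.0147). With the summed level of liver genes as a covariate the changes were log2 0.35 (adjusted p = 0.127) and 0.35 (adjusted p = 0.0702).

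Transcripts of several cell types also differed between 24 and 2 months. Of the 6 microglia markers 4 rose at 24 with 2 months and none fell, and their summed level was 316 to 350 CPM at 24 months and 288 to 335 CPM at 2 months. The summed level of 10 liver genes was 63 to 277 CPM at 24 months and 2.45 to 204 CPM at 2 months, and albumin, their most abundant gene, was at 0 in 1 of the 25 libraries. Neither of those sums was free of overlap, but 2 others were. The summed level of 3 oligodendrocyte precursor markers was 126 to 137 CPM at 24 months and 161 to 180 CPM at 2 months, and 2 of the 3 fell. The summed level of 5 choroid plexus genes was 600 to 714 CPM at 24 months and 476 to 539 CPM at 2 months, and 0 of the 5 passed edgeR's test, with 0 at an unadjusted p under 0.05. In whole tissue, more cells of a type and more RNA per cell cannot be told apart, and the part of these cell types in the rises of the members was not tested.

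**Figure D2:**
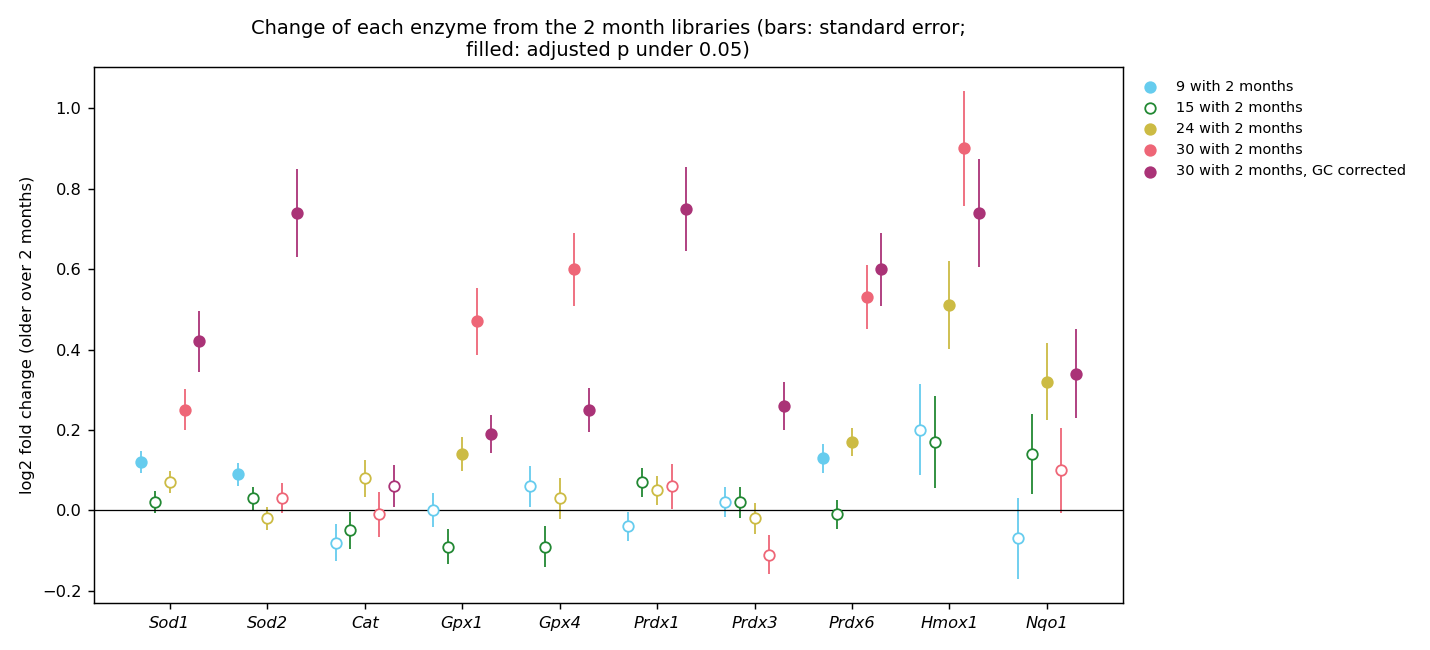
Log2 fold change of each enzyme at 9, 15, 24 and 30 months over 2 months (vertical axis), with the 30 month values also after GC correction; bars are standard errors and filled points passed an adjusted p of 0.05. Hmox1 at 24 months stands at 0.51 and Nqo1 at 0.32, and Sod2 at 30 months stands at 0.74 with the correction and at 0.03 without it; corrected values of the younger ages are not drawn.

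At 24 with 2 months 4 of the 10 members rose and none fell, where 10.8% of all genes rose and 11.5% fell. The 4 were Hmox1, Nqo1, Prdx6 and Gpx1, and in each the libraries of the 2 ages did not overlap. For Prdx6 the gap was narrow, with a lowest value of 176 CPM at 24 months and a highest of 175 CPM at 2 months. The share of all genes without overlap was not computed. The median log2 change was 0.08 among the members and 0 among all genes.

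Prdx6 (ENSMUSG00000026701, chromosome 1, 161240112 to 161251219, minus strand) encodes a peroxiredoxin that also reduces lipid peroxides and has phospholipase activity, and in the brain it is known as an astrocyte enzyme. Its levels were 175, 166, 166, 170 and 168 CPM at 2 months and 204, 185, 185, 175 and 173 CPM at 9 months. At 15 months they were 169, 164, 168, 173 and 165 CPM, and at 24 months 204, 192, 189, 176 and 189 CPM. The gene was high at 9 and 24 months and low at 2 and 15 months. It rose 1.13-fold at 24 with 2 months (log2 0.17 ± 0.0360 SE, adjusted p = 0.000929) and 1.13-fold at 24 with 15 months (log2 0.18, adjusted p = 0.000672). The summed level of the 5 astrocyte markers was 4160 to 4610 CPM at 24 months and 4110 to 4410 CPM at 2 months.

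Gpx1 (ENSMUSG00000063856, chromosome 9, 108338903 to 108340343, plus strand) encodes the main cytosolic glutathione peroxidase, a selenium enzyme. Its levels were 41.3, 38.0, 41.1, 41.9 and 38.5 CPM at 2 months, 40.4, 40.6, 41.9, 36.5 and 41.0 CPM at 9 months and 35.2, 38.8, 36.7, 40.7 and 37.4 CPM at 15 months. At 24 months they were 43.2, 43.4, 45.8, 44.8 and 43.5 CPM, above every library of the younger ages. Gpx1 rose 1.1-fold at 24 with 2 months (log2 0.14 ± 0.0419 SE, adjusted p = 0.0190) and 1.17-fold at 24 with 15 months (log2 0.22 ± 0.0419 SE, adjusted p = 0.000358). Gpx1 is GC-rich, at 57.2%, and the GC gap was 0.06 to 0.15 at 24 months, -0.25 to -0.08 at 15 months and -0.02 to 0.08 at 2 months. After GC correction the changes were log2 0.09 (adjusted p = 0.0865) and 0.10 (adjusted p = 0.0650). With the liver covariate the change at 24 with 2 months was 0.06 (adjusted p = 0.479), and that call also missed the threshold without 2 months replicate 2 (adjusted p = 0.0604), 2 months replicate 5 (0.0576) or 24 months replicate 3 (0.0536).

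The other 6 members did not pass the test at 24 with 2 months. Their 95% intervals are not adjusted for the number of genes tested. They were 1.01 to 1.09-fold for Sod1, 0.949 to 1.03-fold for Sod2 and 0.988 to 1.13-fold for Cat. For Gpx4 the interval was 0.952 to 1.10-fold, for Prdx1 0.986 to 1.09-fold and for Prdx3 0.936 to 1.04-fold. The interval of Sod1 lay above no change, while its adjusted p by edgeR's test was 0.0798. Without 24 months replicate 2 Sod1 passed (adjusted p = 0.0417). Sod2, the manganese superoxide dismutase, and Prdx3 are both enzymes of mitochondria, and both intervals include no change.

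The departure from a straight line asks whether a member had a wave between 2 and 24 months. It was past the threshold for Sod1, Sod2, Gpx1, Gpx4 and Prdx6, which is 5 of 10, where 29.3% of all genes passed. Adjusted p was 0.00176 for Prdx6, 0.00377 for Gpx1, 0.00450 for Sod1, 0.0184 for Sod2 and 0.0491 for Gpx4. After GC correction Gpx1 had an adjusted p of 0.301 and Gpx4 of 0.546. Gpx4 kept its call in 6 of the 20 fits that leave out 1 library.

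At 9 with 2 months 3 of 10 members rose and none fell, where 7.76% of all genes rose and 6.79% fell. Sod1 (ENSMUSG00000022982, chromosome 16, 90220754 to 90226329, plus strand) encodes the copper and zinc superoxide dismutase of the cytosol. Its levels were 123, 117, 124, 115 and 120 CPM at 9 months, against 111, 108, 112, 109 and 111 CPM at 2 months, with no overlap. It rose 1.09-fold (log2 0.12 ± 0.0276 SE, adjusted p = 0.00391), a call that held without any single library. Prdx6 rose 1.09-fold (log2 0.13 ± 0.0362 SE, adjusted p = 0.0152). Sod2 (ENSMUSG00000006818, chromosome 17, 13006846 to 13040063, plus strand) rose 1.06-fold, with 131 to 138 CPM at 9 months and 123 to 132 CPM at 2 months, which overlap (adjusted p = 0.0404).

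Without 9 months replicate 1, Prdx6 was at log2 0.09 (adjusted p = 0.0703) and Sod2 at 0.08 (adjusted p = 0.101), both past the threshold with it. Of the 10 members, 1 passed without that library. It also had the highest summed level of red blood cell genes, 203 CPM, where the other libraries of 9 months had 34.2 to 74.8 CPM, and the lowest summed level of choroid plexus genes, 36.5 CPM, where the other 24 libraries had 416 CPM or more. With the red blood cell covariate Prdx6 was at log2 0.11 (adjusted p = 0.0146) and Sod2 at 0.08 (adjusted p = 0.0511). The Sod2 call was also lost without any of 6 other single libraries (adjusted p 0.0618 to 0.107). Sod2 shares 3110 bases at 98.3% identity with a transcript annotated to Rps6ka2, and how the counting placed reads from that stretch is not given in the sources used here.

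At 15 with 2 months no member passed in either direction by edgeR's test, where 5.31% of all genes rose and 7.30% fell. None of the 10 had an unadjusted p under 0.05 and none was called by DESeq2 or limma-voom. At 15 with 9 months 1 member rose and 2 fell, where 3.89% of all genes rose and 6.84% fell. Sod1 fell to 110, 112, 112, 116 and 112 CPM at 15 months (log2 -0.09 ± 0.0275 SE, adjusted p = 0.0255). Prdx6 fell (log2 -0.14 ± 0.0361 SE, adjusted p = 0.0132). Its lowest library at 9 months and its highest at 15 months both stood at 173 CPM after rounding. Prdx1, a cytosolic peroxiredoxin (ENSMUSG00000028691, chromosome 4, 116685544 to 116700822, plus strand), rose, to 61.2 to 64.8 CPM at 15 months against 54.9 to 59.9 CPM at 9 months (log2 0.11, adjusted p = 0.0366). Prdx6 missed the threshold without 9 months replicate 1 (adjusted p = 0.0560), and Prdx1 after GC correction (log2 0.07, adjusted p = 0.286). Sod1 also lost its call without any of 5 single libraries (adjusted p 0.0509 to 0.0850) and Prdx1 without any of 7 (0.0512 to 0.0946).

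At 24 with 15 months 4 of 10 members rose and none fell, where 12.3% of all genes rose and 11.3% fell. They were Gpx1 and Prdx6, given above, Hmox1 (log2 0.34 ± 0.107 SE, adjusted p = 0.0211) and Cat (log2 0.13 ± 0.0461 SE, adjusted p = 0.0389). Cat (ENSMUSG00000027187, chromosome 2, 103453849 to 103485160, minus strand), the catalase of peroxisomes, had 42.3 to 47.8 CPM at 24 months and 39.5 to 43.9 CPM at 15 months. It lost its call without any of 7 single libraries, with adjusted p up to 0.112. Hmox1 lost its call without 15 months replicate 4 (adjusted p = 0.0729), 15 months replicate 5 (0.0666) or 24 months replicate 1 (0.0687).

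Relations of the 10 members with 11 summed marker levels and the GC gap were computed over the 20 libraries after removal of age means. None of the 120 passed the adjustment. The smallest permutation p of Pearson's r was for Prdx3 with choroid plexus genes (r = -0.43, permutation p = 0.00225, adjusted p = 0.129). Cat with oligodendrocyte markers gave r = 0.70 (permutation p = 0.00649, adjusted p = 0.156). The relations with red blood cell genes are given for the 3 members of highest r, chosen after their values were seen. Prdx6 gave Pearson r = 0.69 (permutation p = 0.0167) and Spearman rho = 0.57 (permutation p = 0.0231) with the summed level of 5 such genes. Nqo1 gave r = 0.68 (permutation p = 0.00429) and rho = 0.59 (permutation p = 0.0150). Hmox1 gave r = 0.57 (permutation p = 0.0167) and rho = 0.56 (permutation p = 0.0196). Without the 2 libraries farthest from the median in red cell genes, r was 0.62, 0.59 and 0.66. The adjusted p of Pearson's r was 0.223, 0.129 and 0.223, and that of rho 0.294 in each. Prdx6 gave r = -0.68 with the choroid plexus genes (permutation p = 0.00800, adjusted p = 0.160; rho = -0.52, permutation p = 0.0166, adjusted p = 0.294), and r = -0.28 without 9 months replicates 1 and 5. The summed level of red blood cell genes ran from 46.3 to 165 CPM at 24 months and from 40 to 69.7 CPM at 2 months. With that level as a covariate, chosen after seeing the data, the rises at 24 with 2 months were log2 0.14 for Prdx6 (adjusted p = 0.00137), 0.44 for Hmox1 (adjusted p = 0.00272) and 0.25 for Nqo1 (adjusted p = 0.0398). The rise of Hmox1 at 24 with 15 months was 0.23 with it (adjusted p = 0.146).

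**Figure D3:**
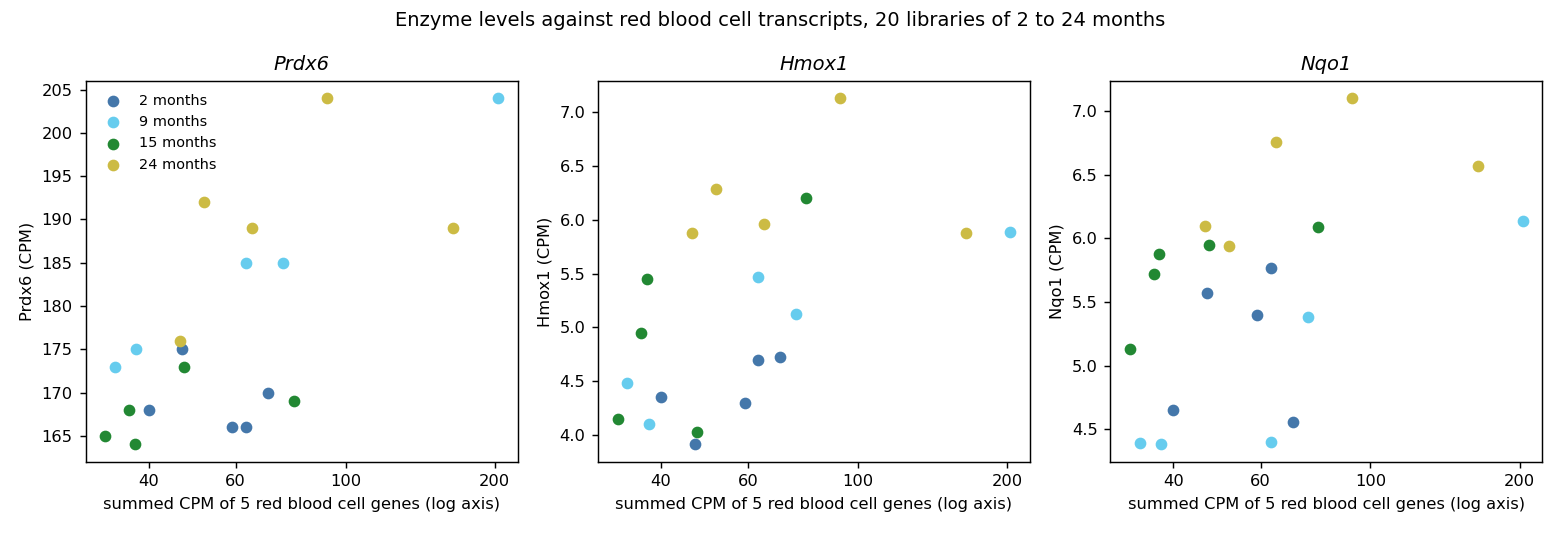
Level of Prdx6, Hmox1 and Nqo1 (vertical axes, CPM, not starting at 0) against the summed level of 5 red blood cell genes (horizontal log axis, CPM) in the 20 libraries of 2 to 24 months; each point is a library, coloured by age. The library at 203 CPM is 9 months replicate 1, with 204 CPM of Prdx6. The 24 month libraries, at 46.3 to 165 CPM of red blood cell genes, have 5.88 to 7.13 CPM of Hmox1 and 5.94 to 7.1 CPM of Nqo1. The highest younger libraries have 6.2 CPM of Hmox1 (15 months) and 6.14 CPM of Nqo1 (9 months).

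Among pairs of members, Gpx1 moved with Sod1 (r = 0.68, permutation p = 0.00068, adjusted p = 0.0306; rho = 0.63, permutation p = 0.00312, adjusted p = 0.0702) and with Gpx4 (r = 0.71, permutation p = 0.0018, adjusted p = 0.0405; rho = 0.69, permutation p = 0.00275, adjusted p = 0.0702) within ages, adjusted over 45 pairs and over 20 libraries. Without the 2 libraries farthest from the median in Gpx1, r was 0.55 and 0.64. Both Gpx1 and Sod1 are also given with the GC gap of the library, where neither relation passed the adjustment. Gpx1 had a positive relation (r = 0.73, permutation p = 0.00356, adjusted p = 0.129 over the 120 relations; rho = 0.65, permutation p = 0.00557, adjusted p = 0.252), with r = 0.66 without the 2 farthest libraries. Sod1 gave r = 0.67 (permutation p = 0.00347, adjusted p = 0.129; rho = 0.62, permutation p = 0.00753, adjusted p = 0.252), with r = 0.60 without those libraries. The part of the GC gap in the relation of Gpx1 with Sod1 was not tested.

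The genes most like each member over the 20 libraries, by Pearson correlation of log2 CPM among 12735 genes, were named for the members past either test. For Hmox1 they were Sugct (r = 0.90), Tmbim1 (0.86) and Frmd8 (0.83), and for Nqo1 Etfrf1 (0.86), Csf2rb (0.85) and B3galt5 (0.84). Sod1 was most like Ndufa7 (0.91), Ndufa6 (0.89) and Pgp (0.88), and Prdx6 most like Ndrg2 (0.90), Etnppl (0.90) and Gnai2 (0.88). Sod2 was most like Itsn1 (0.89), Hspa4l (0.88) and Oprm1 (0.87). Gpx1 was most like Tmem179, Map7d1 and Edf1 (0.90 each), and Gpx4 most like Ppp2r1a (0.81), Actb (0.80) and Fmc1 (0.80). The points share library depth, age and GC gap, and the highest of many correlations is high by selection.

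At 30 months the picture depends on the 4 libraries with a wide GC gap. In the fit of all 25 libraries 5 of 10 members rose at 30 with 2 months and none fell, where 28.5% of all genes rose and 29.5% fell. They were Hmox1 (1.87-fold, log2 0.90 ± 0.143 SE, adjusted p = 2.24e-05), Gpx4 (1.52-fold, adjusted p = 1.47e-05), Prdx6 (1.45-fold, adjusted p = 1.19e-05), Gpx1 (1.39-fold, adjusted p = 6.33e-05) and Sod1 (1.19-fold, adjusted p = 0.000231). The median log2 change was 0.17 among the members and 0.01 among all genes. The same 5 genes rose at 30 with 24 months, where 25.5% of all genes rose and 29.0% fell, with log2 changes from 0.18 for Sod1 to 0.57 for Gpx4.

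Hmox1 stood at 6.25, 9.13, 6.08, 10.6 and 9.13 CPM in 30 month replicates 1 to 5. Gpx4 (ENSMUSG00000075706, chromosome 10, 80047166 to 80056439, plus strand) encodes the peroxidase that reduces lipid hydroperoxides in membranes and guards against ferroptosis. It had 43.3, 54.0, 51.8, 53.7 and 74.0 CPM at 30 months, against 34.4 to 39.0 CPM at 2 months, and at 60.2% it is the most GC-rich of the 10. Prdx6 had 190, 251, 217, 259 and 306 CPM and Sod1 120, 126, 124, 129 and 156 CPM. In Gpx4, Gpx1, Prdx6 and Sod1 replicate 1 was the lowest of the 5 libraries and replicate 5, which had the widest GC gap, the highest.

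With the GC correction, 9 of 10 members rose at 30 with 2 months and none fell, where 25.5% of all genes rose and 20.5% fell. At 30 with 24 months 6 rose and none fell, where 24.6% of all genes rose and 17.3% fell. Hmox1 (log2 0.27, adjusted p = 0.0922) and Gpx1 (log2 0.10, adjusted p = 0.0846), which had risen there without the correction, were not among the 6. The uncorrected rise of Hmox1 there also missed the threshold with the liver covariate (log2 0.17, adjusted p = 0.408) and without 30 months replicate 4 (adjusted p = 0.0781). The GC-rich members changed less, with log2 0.25 for Gpx4 and 0.19 for Gpx1 at 30 with 2 months, and the GC-poor members more. Prdx1 came to log2 0.75 ± 0.104 SE and Sod2 to 0.74 ± 0.110 SE, against 0.06 and 0.03 without the correction. Prdx3 (ENSMUSG00000024997, chromosome 19, 60864051 to 60874556, minus strand) came to 0.26, against -0.11 without it. The corrected Sod2 levels of 30 month replicates 1 to 5 were 127, 204, 240, 224 and 271 CPM, so that replicate 1 stood among the younger libraries and the other 4 far above them. Sod2 and Prdx1 hold 42.2% and 42.3% GC, the lowest of the 10.

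Hmox1, Prdx6, Sod1, Gpx1 and Gpx4 passed at 30 with 2 months both with and without the correction, with log2 0.74 for Hmox1, 0.60 for Prdx6 and 0.42 for Sod1 after it. With replicate 1 as the only 30 month library, a fit that assumes this library to vary like the other ages, no member passed by edgeR's test. Of the 10, 5 then had an unadjusted p under 0.05 at 30 with 2 months and 1 at 30 with 24 months. Hmox1 was at log2 0.51 (adjusted p = 0.0893), Gpx4 at 0.25 (adjusted p = 0.0768), Prdx6 at 0.17 (adjusted p = 0.0882), Sod1 at 0.12 (adjusted p = 0.117) and Gpx1 at 0.08 (adjusted p = 0.570) over 2 months. At 30 with 24 months Hmox1 and Prdx6 were at 0 and Gpx1 at -0.05.

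**Figure D4:**
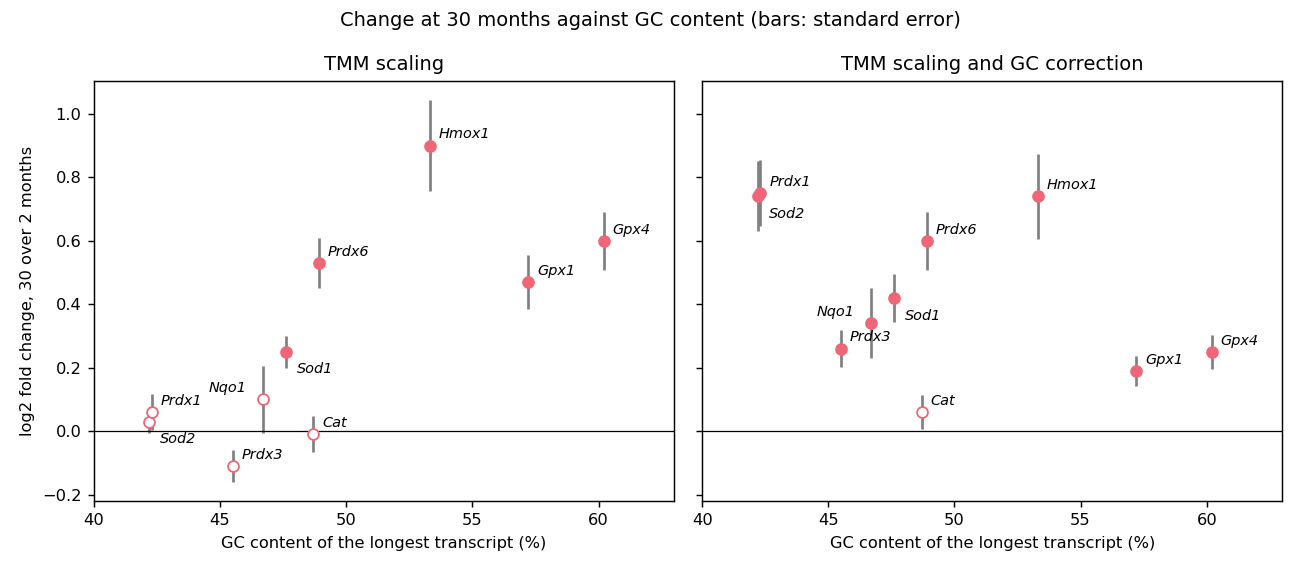
Log2 fold change at 30 over 2 months (vertical axis) against the GC content of the longest transcript (horizontal axis, %) for the 10 enzymes, with TMM scaling (left) and with the GC correction added (right); bars are standard errors and filled points passed an adjusted p of 0.05. On the left the GC-rich Gpx4 stands at 0.60 and the GC-poor Sod2 at 0.03, and on the right Gpx4 stands at 0.25 and Sod2 at 0.74.

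The wider antioxidant system was read from 65 further genes in 11 lists, of which 64 were tested. At 24 with 2 months 22 rose and 4 fell, where 10.8% of all genes rose and 11.5% fell. Along the line 18 rose and 1 fell, where 8.16% of all genes rose and 8.41% fell, and the counts of the single lists below stand beside the same shares. Their median log2 change at 24 with 2 months was 0.08, the same as among the 10 members, and 0 among all genes. With the liver covariate 14 were called at 24 with 2 months and 8 along the line, while over all genes the calls along the line fell to 946 with it, against 2950 without it.

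The glutathione transferases, which attach glutathione to reactive compounds, had the most risen members: 7 of 10 rose at 24 with 2 months and 6 along the line, and none fell. Gsta4, which clears the lipid peroxidation product hydroxynonenal, rose log2 0.25 along the line (adjusted p = 0.00032). Mgst1, a membrane-bound member, rose 0.64 (adjusted p = 0.00181), Gstm1 rose 0.36 (adjusted p = 0.00375) and Gstp1 rose 0.26 (adjusted p = 0.00565). Gstm1 had 155 ± 8.51 CPM at 24 months and 117 ± 10.7 CPM at 2 months (SD, n = 5 each). With the liver covariate 2 of the 10 were called along the line, beside the like drop over all genes given above, with Gstm1 at 0.43 (adjusted p = 0.0250) and Mgst1 at 0.40 (adjusted p = 0.148).

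The NADPH oxidase of phagocytes makes superoxide and is listed as the source that the enzymes act on. Of its 6 genes 4 rose at 24 with 2 months and 3 along the line, and none fell. Along the line Cyba, a membrane subunit, rose log2 0.74 (adjusted p = 0.00104), the cytosolic subunit Ncf4 rose 0.78 (adjusted p = 0.0149) and the catalytic subunit Cybb rose 1.11 (adjusted p = 0.0374). Cyba had 5.18 ± 1.07 CPM at 24 months and 2.99 ± 0.548 CPM at 2 months (SD, n = 5 each). Cybb ran from 2.35 to 8.45 CPM at 24 months and from 1.23 to 3.26 CPM at 2 months. Cyba, Ncf4 and Cybb are known as microglial genes in the brain. At 24 with 2 months 4 of 6 microglia markers rose, while their summed levels overlapped between the ages, as given above. The part of microglia in the rises of the oxidase genes was not tested. With the liver covariate 1 of the 6 passed along the line, and with the red blood cell covariate 1 passed at 24 with 2 months.

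The suppliers of NADPH, on which thioredoxin and glutathione recycling depend, had 2 of 7 risen along the line: G6pdx rose log2 0.23 (adjusted p = 0.000541) and Tkt 0.22 (adjusted p = 0.0006). In the thioredoxin system 2 of 10 rose, Srxn1, which repairs overoxidised peroxiredoxins, by log2 0.15 (adjusted p = 0.00403) and Txnip, an inhibitor of thioredoxin, by 0.54 (adjusted p = 0.0122). Of 7 genes of selenoprotein synthesis and supply 2 rose, Selenop, the plasma carrier of selenium, by log2 0.27 (adjusted p = 0.00443) and Sephs2 by 0.16 (adjusted p = 0.0419). Of 7 genes of Nrf2 and its regulators 1 rose and 1 fell: Nfe2l2 rose log2 0.20 (adjusted p = 0.0272), and Mafg, a small Maf partner of Nrf2, fell by 0.14 (adjusted p = 0.0296). Nfe2l2 had 25.2 ± 1.47 CPM at 24 months and 21.5 ± 0.461 CPM at 2 months (SD, n = 5 each). With the liver covariate 1 NADPH supplier, 2 thioredoxin genes and 1 selenoprotein gene rose along the line. Of the Nrf2 list 1 rose and 0 fell with it, so the fall of Mafg was not called. The calls over all genes dropped as well, as given above.

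Gpx3, the secreted glutathione peroxidase, rose log2 0.49 (adjusted p = 0.0303), 1 of 3 tested in its list, and Prdx5 rose 0.12 (adjusted p = 0.0232), 1 of 3. With the liver covariate 0 genes of either list passed along the line, so both calls were lost, beside the drop over all genes given above. Among 6 genes of glutathione synthesis and recycling, 3 of heme breakdown and 2 of superoxide removal (Sod3 and Ccs) none passed along the line by edgeR's test, DESeq2 or limma-voom. At an unadjusted p under 0.05 the counts were 1, 1 and 0. Hmox2, the heme oxygenase made at a steady level, had 53.9 ± 1.60 CPM at 24 months and 53.8 ± 1.18 CPM at 2 months (SD, n = 5 each), while Hmox1 rose.

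**Figure D5:**
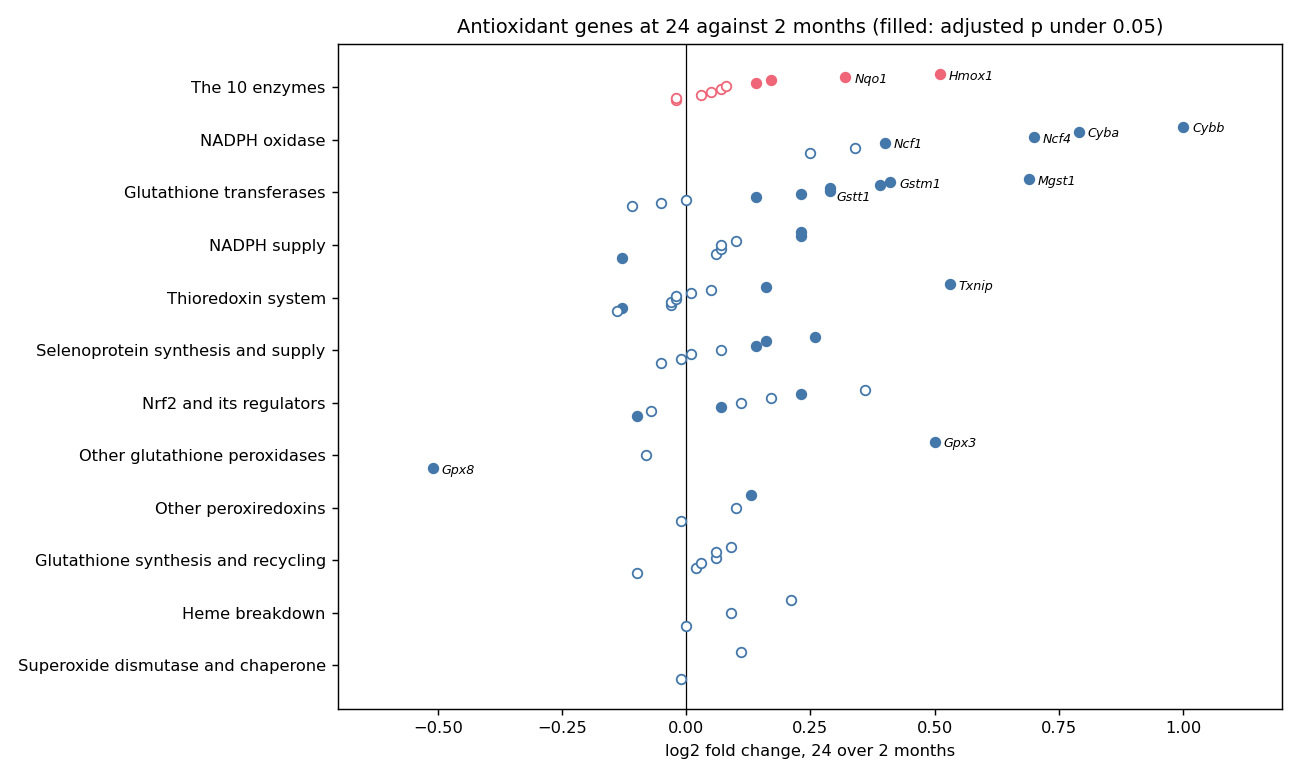
Log2 fold change at 24 over 2 months (horizontal axis) for the 10 enzymes (top row) and for 64 further antioxidant genes by list; each point is a gene, filled where adjusted p was under 0.05, and called genes beyond 0.3 are named. Cybb stands at 1, Cyba at 0.79 and Mgst1 at 0.69, to the right of Hmox1 at 0.51, and Gpx8 at -0.51 is the lowest.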

How the data were processed

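Total RNA of brain hemispheres was sequenced after preparation with a TruSeq RNA kit, per the labels' protocols. Per the submitters' processing notes, CASAVA 1.7, STAR 2.4.1d and featureCounts 1.4.6-p4 were used with build GRCm38. The authors deposited whole-number counts per Ensembl gene without normalization. The annotation release, strandedness and handling of reads with several hits are not given in the sources used here. The authors' deposited RPKM values were not used, because they are divided by totals of other libraries. Of 47729 genes, 47310 matched GENCODE M21, which gave names, positions and GC content, and 419 did not.

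The tests were run in edgeR 4.0.16 under R 4.3.3 (filterByExpr, TMM, robust quasi-likelihood F tests, Benjamini and Hochberg over 17799 genes at 0.05). Ages of 2 to 24 months were fitted without the 30 month libraries, and 30 months in a fit of all 25. The standard error of a log2 fold change is its size divided by the square root of F. The GC correction subtracts a natural spline with 5 degrees of freedom of each library's log2 ratio on transcript GC content. Relations between libraries used 100000 permutations within ages, after age means were removed from log2(CPM + 0.5), or from log2(CPM + 1) for summed markers. Alternatives were DESeq2 1.42.0, limma-voom 3.58.1, other scalings, no filter, GC offsets, liver and red blood cell covariates, other sets of libraries and leaving out each library. The fits were also run on data simulated from the same kind of model, which checks the code and not the GC gap of the real libraries.

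The text names all 10 members, the called genes of each list (at most 4, by smallest p along the line) and the 3 genes most like each member past a test. Replicates were numbered by accession order, which pairs nothing. Counting error alone gives a coefficient of variation of 1.36% (Prdx6 at 30 months) to 10.3% (Hmox1 at 2 months), and in some sets of 5 libraries, such as Hmox1 at 2 months and Nqo1 at 15 months, the spread is no wider than that. The members and lists were chosen with earlier results of these data known.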

Additional observations from a re-analysis of the deposited data

Results flagged for a closer look

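Of 60 sets of 5 libraries (each member at each age, and at 30 months also after GC correction), 5 held a library far from the other 4, judged by the gap to the nearest library against the whole range. Chance flags about 1 in 20 such sets. Sod1 in 30 months replicate 5 had 156 CPM, where the other 4 libraries had 120 to 129 CPM, and this library also had the widest GC gap, 2.01. Sod2 in 15 months replicate 1 had 137 CPM, above 127 to 129 CPM in the others, and its GC gap of -0.25 was the lowest of all libraries. Cat in 2 months replicate 1 had 37.0 CPM, below 43.7 to 46.0 CPM, and Cat in 30 months replicate 2 had 48.5 CPM, above 40.7 to 42.6 CPM. Gpx1 in 9 months replicate 4 had 36.5 CPM, below 40.4 to 41.9 CPM. The part of the GC gap in the first 2 values was not tested.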

How the results depend on the processing

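The calls of Hmox1 at 24 with 2 months and along the line held in every setting run. Of the members called, by comparison, 3 at 9 with 2 months became 1 with library totals alone, 4 at 24 with 2 months became 2 with the liver covariate, and 2 along the line became 1 with it. At 15 with 2 months the liver covariate gave 1 member, Gpx1, which was lower, where there had been 0. At 24 with 15 months 4 became 1 with GC offsets and 2 with the red blood cell covariate, and for the departure 5 became 3 with GC offsets. With all 25 libraries in the fit the counts were 0 at 9 with 2, 1 at 24 with 2, 0 at 15 with 9 and 0 at 24 with 15 months. The further antioxidant genes went from 26 to 14 with the liver covariate and to 11 with all 25 libraries at 24 with 2 months, and from 19 to 8 along the line with the liver covariate. At 30 with 2 months 5 members became 9 with GC offsets, 8 with only those ages and GC offsets, and 0 with replicate 1 alone. At 30 with 24 months 5 became 3 with only those ages and 0 with replicate 1 alone. Leaving out each library gave 1 to 3 members at 9 with 2, 1 to 4 at 15 with 9 and 2 to 5 at 24 with 15 months. The lowest counts came without 9 months replicate 1 in the first, without 9 months replicate 3, 15 months replicate 1 or 15 months replicate 3 in the second, and without 15 months replicate 4 or 24 months replicate 1 in the third.

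Prdx3 turned from log2 -0.11 to 0.26 at 30 with 2 months and from -0.09 to 0.27 at 30 with 24 months with GC offsets, also with only those ages fitted. Gpx1 turned from 0.34 to -0.05 at 30 with 24 months with replicate 1 alone. The causes were not tested. The genes called went from 2589 to 423 (9 with 2), 2245 to 224 (15 with 2), 3972 to 931 (24 with 2), 1910 to 3 (15 with 9) and 4208 to 201 (24 with 15 months) with all 25 libraries, which share a wider spread. GC offsets gave 1414 at 15 with 2, 966 at 15 with 9 and 2320 at 24 with 15 months, and the liver covariate 2036 at 24 with 2 months and 946 of 2950 along the line. At 30 with 2 months 10324 became 1293 with replicate 1 alone and 5785 with only those ages and GC offsets. At 30 with 24 months 9701 became 415 with replicate 1 alone, 6197 with only those ages and 4931 with GC offsets added. The share of called genes that rose went from 53.3% to 35.3% at 9 with 2 months, 36.2% to 57.9% at 15 with 9 months and 49.3% to 60.7% along the line with library totals. It went from 42.1% to 54.1% at 15 with 2 months with RLE size factors, from 52.1% to 40.3% (RLE) and 34.2% (GC offsets) at 24 with 15 months, and from 46.8% to 58.7% at 30 with 24 months with GC offsets. No paired analysis was possible because replicates were numbered by accession order, which links no libraries across ages. Depth limits Hmox1 and Nqo1 most, with 80 or more counts per library.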
